A study of Mus musculus with 8 samples.

Results

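Tbx18 and 6 other T-box genes, Tbx15, Tbx20, Tbx2, Tbx3, Tbx4 and Tbx5, were followed probe set by probe set in mouse pre-iPSCs, cells that stalled on the way to induced pluripotency. The platform annotation gave these 7 genes 17 of the 45037 probe sets that were tested, on an array whose probe sets name 18193 genes singly: 5 for Tbx3, 3 for Tbx20, 1 for Tbx2 and 2 for each of the others. Tbx18 was chosen by its signal, lower than control in both knockdowns, and the remaining genes serve as its comparison. Its differences from control are therefore described without a test.

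The 8 arrays form 3 groups by siRNA, each kept on the cells for 3 days in embryonic stem cell medium. The 3XHMT group (n = 2) received siRNAs to Ehmt1, Ehmt2 and Setdb1 together, which encode enzymes that methylate lysine 9 of histone H3. The Cbx3 group (n = 3) received siRNA to Cbx3, the gene of HP1 gamma, which binds that mark. The control group (n = 3) received siRNA to luciferase, a gene mouse cells do not have. The labels call the arrays of a group biological replicates without saying whether cultures were separate, so p-values measure the spread between these arrays, which may be technical. The labels name no strain, donor cell or reprogramming factors.

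T-box proteins are transcription factors that share a DNA-binding domain, the T-box, named after Brachyury. Tbx18, Tbx15 and Tbx20 belong to the Tbx1 subfamily. Tbx2, Tbx3, Tbx4 and Tbx5 form the Tbx2 subfamily, whose genes lie as the neighbouring pairs Tbx2 with Tbx4 and Tbx3 with Tbx5. In mouse embryos they mark mesodermal tissues, Tbx18 among others the epicardium, the sinus horn and the anterior part of each somite, and Tbx15 the limb and skin mesenchyme. Tbx18, Tbx15, Tbx2 and Tbx3 act mainly as repressors, while Tbx5 and Tbx20 can activate cardiac genes.

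The windows before the starts of Tbx18, whose signal differed most from control, and Tbx4, which differed between the knockdowns in a fit described below, are shown here. Of the 7 genes, 3 matched the promoter table of RefSeq (GRCm38.p6), Tbx18, Tbx20 and Tbx4. Both sequences hold the 250 bases before an annotated start, 5′ to 3′ on the gene's strand, from chr9:87731261-87731510 on the minus strand for Tbx18 and chr11:85896515-85896764 on the plus strand for Tbx4. The Tbx18 window ends at the start of the gene given below, while the Tbx4 window lies inside the annotated gene, before an internal start. Capitals mark a CCAAT box in Tbx18 and a TATAAA box in Tbx4, each on the opposite strand.
Tbx18: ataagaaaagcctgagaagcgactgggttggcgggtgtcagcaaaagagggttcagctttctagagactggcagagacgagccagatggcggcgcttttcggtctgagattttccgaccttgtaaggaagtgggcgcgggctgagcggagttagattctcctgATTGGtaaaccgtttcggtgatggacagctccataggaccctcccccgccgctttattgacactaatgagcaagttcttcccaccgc
Tbx4: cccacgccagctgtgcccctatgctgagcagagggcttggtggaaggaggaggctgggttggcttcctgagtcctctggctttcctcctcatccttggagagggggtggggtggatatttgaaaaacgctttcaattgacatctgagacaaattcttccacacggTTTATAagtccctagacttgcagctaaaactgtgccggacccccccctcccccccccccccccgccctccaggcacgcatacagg
Motifs were searched on both strands as GGTGTG, the core of the T-box binding element, as AGGTGTGA, which contains that core, and as CCAAT and TATAAA. Neither GGTGTG nor AGGTGTGA is in the 3 windows, while GGTGTG is in 16.3% and AGGTGTGA in 1.1% of all 32851 windows of that length. The Tbx18 window holds CCAAT from position -87 to the start, as 33.8% of windows do at some position. The Tbx4 window holds TATAAA from position -85, as 12.4% do. The Tbx18 window has 15 CpG dinucleotides, Tbx20's has 22 and Tbx4's has 6, against a median of 6 over all windows.

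Before the members, 3 facts of the arrays bear on their values. On the log2 scale 10 of the 17 T-box probe sets were below the median of every array, where fold changes can be compressed. The targeted transcripts had lower means at their brightest probe sets. Cbx3 (a probe set also annotated to the pseudogene Cbx3-ps5) was at 42.8% of control in the Cbx3 arrays. In the 3XHMT arrays Setdb1 was at 63.2%, Ehmt2 at 66.8% and Ehmt1 at 79.6%. For both Ehmt genes the 3XHMT arrays overlapped the control arrays. By limma, adjusted over all probe sets, the Cbx3 difference passed (adjusted p = 0.0453) and the others did not (0.556 for Setdb1, 1.00 for both Ehmt genes). An 18S ribosomal RNA control probe set parts the arrays, across the groups, into a high set (3XHMT 1, Cbx3 2 and control 2), a middle set (Cbx3 1 and control 1) and a low set (3XHMT 2, Cbx3 3 and control 3). Below, the 18S block is a fit with these sets as a term, and a difference within a set is between 2 arrays of that set. Control and Cbx3 arrays of the same replicate number are in the same set.

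Tbx18 signal was lower in both knockdowns, more so in 3XHMT cells. Its brightest probe set (gene at chromosome 9, 87702800 to 87731260 on GRCm38.p6) read 5.68 and 5.69 in the 3XHMT arrays, 6.70, 6.15 and 6.29 in the Cbx3 arrays and 7.73, 7.57 and 7.69 in control arrays 1 to 3. No value of a group reached that of another, and the order of the groups was 3XHMT, Cbx3, control from low to high. The means were 5.68 ± 0.01 (SD, n = 2) in 3XHMT cells, 6.38 ± 0.29 (SD, n = 3) in Cbx3 cells and 7.66 ± 0.08 (SD, n = 3) in control cells, so that signal was 3.95-fold lower in 3XHMT and 2.43-fold lower in Cbx3 cells than in control. In bulk RNA, fewer cells that express a gene cannot be told apart from less of its RNA per cell.

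These values move the probe set through the signal range of the array. In control arrays it stood above 69.6% to 71.2% of all probe sets, in Cbx3 arrays above 53.9% to 60.9%, and in 3XHMT arrays at 46.7% and 46.9%, just under the array median. Within the 18S sets the difference from control was -1.89 and -2.01 in 3XHMT arrays and -1.02, -1.42 and -1.40 in Cbx3 arrays. Leaving out any 1 array gave differences of -2.03 to -1.95 for 3XHMT and of -1.44 to -1.17 for Cbx3.

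At the dimmer Tbx18 probe set too both knockdowns lay apart from control, with almost no gap between the knockdowns. It read 3.66 and 3.87 in 3XHMT, 4.23, 3.87 and 3.87 in Cbx3, and 5.61, 4.90 and 4.78 in control arrays. Both knockdown groups lay below every control array, and the higher 3XHMT value lay below the lowest Cbx3 value by less than the rounding shown. Signal was 2.51-fold lower in 3XHMT and 2.15-fold lower in Cbx3 cells than in control. Its knockdown values stood above 12.6% to 21.8% of probe sets, and control array 1 was its highest value.

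**Figure D1:**
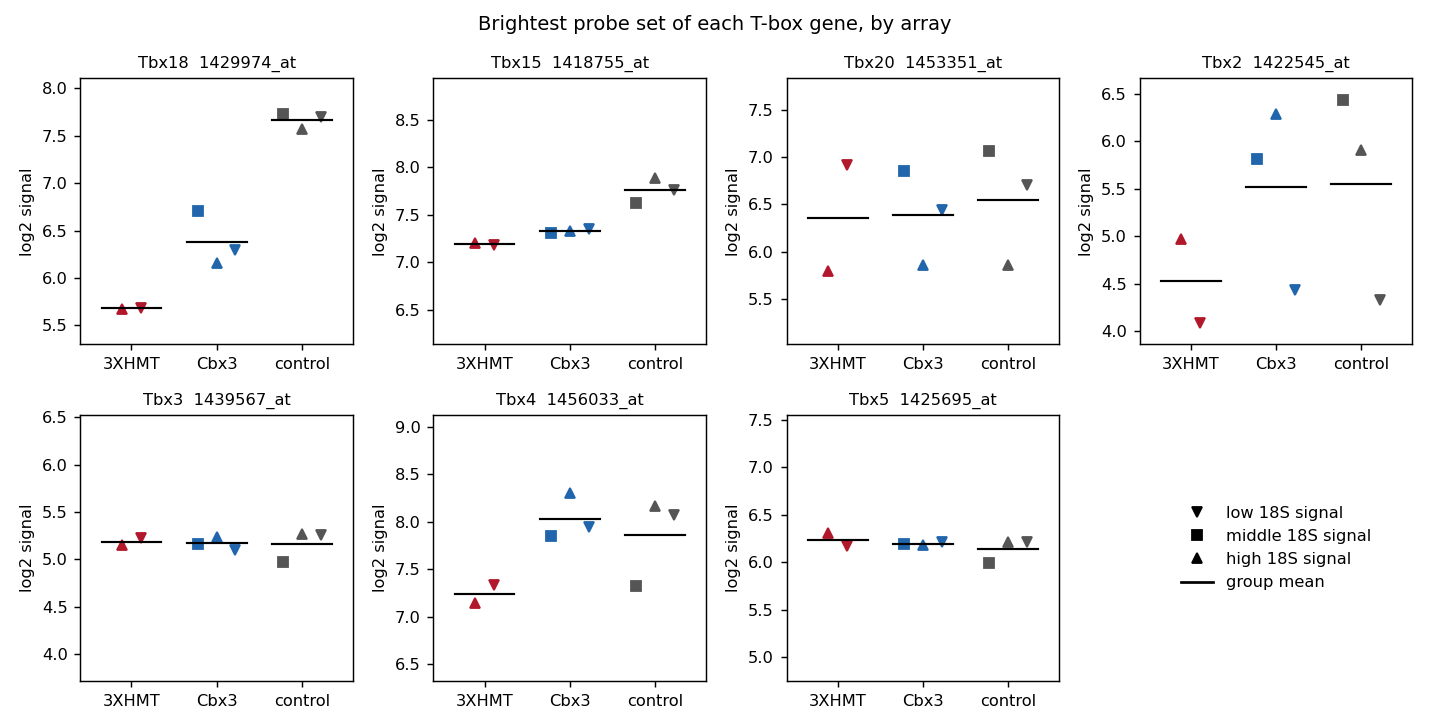
Log2 signal (vertical axes, all of equal span) of the brightest probe set of each of the 7 T-box genes in the 3XHMT, Cbx3 and control groups, 1 point per array, with the mean as a line and the marker shape giving the 18S set. Tbx18 falls into 3 separate levels and Tbx15 into a knockdown and a control level, while Tbx2 and Tbx20 spread by marker shape within every group.

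The knockdowns were set against each other, a comparison that did not itself choose Tbx18 but uses the same knockdown values that did. The p-values of Tbx18 in it are therefore not independent of that choice. Between 3XHMT and Cbx3 cells the brightest Tbx18 probe set differed by -0.70 ± 0.17 (SE) on the log2 scale, 1.63-fold lower in 3XHMT, with a 95% interval of -1.09 to -0.32. It did not pass over all probe sets (limma adjusted p = 0.166, unadjusted p = 0.00305). With the 18S block it passed, at -0.61 ± 0.13 (adjusted p = 0.0381). Over the alternative fits the adjusted p ranged from 0.0381 to 0.556. The dimmer probe set differed by -0.23, with an interval of -0.80 to 0.35 (adjusted p = 0.955).

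Tbx15, the closest relative of Tbx18 in the set, was also lower in every knockdown array, by less. Its brightest probe set (gene at chromosome 3, 99240348 to 99354260) read 7.20 and 7.18 in 3XHMT, 7.31, 7.33 and 7.35 in Cbx3, and 7.62, 7.89 and 7.76 in control arrays. The 3 groups did not overlap, and the 5 knockdown arrays lay between 7.18 and 7.35. Of all probe sets, 6.81% were lower without overlap in 3XHMT than in control arrays. For Cbx3 against control this share was 5.84%, and for 3XHMT against Cbx3 11.5%. The share with all 3 at once was not counted. The difference from control was -0.57 ± 0.11 (SE) in 3XHMT cells, 1.48-fold lower, and -0.43 ± 0.10 in Cbx3 cells, 1.35-fold lower. Neither passed over all probe sets (limma adjusted p = 0.316 and 0.245, unadjusted p = 0.00114 and 0.00298), nor with the 18S block (adjusted p = 0.0658 and 0.0536).

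The dimmer Tbx15 probe set read 4.67 and 4.29 in 3XHMT, 4.76, 4.96 and 4.65 in Cbx3, and 5.44, 5.31 and 4.75 in control arrays. The 3XHMT arrays lay below every control array, and the Cbx3 arrays overlapped control array 3. Differences from control were -0.68 ± 0.22 (SE) in 3XHMT (adjusted p = 0.897) and -0.37 ± 0.20 in Cbx3 cells (0.833). Within the 18S sets both Tbx15 probe sets were lower in all 5 knockdown arrays. The differences were -0.69 to -0.32 at the brighter and -0.68 to -0.10 at the dimmer. How many of all probe sets are lower in this way was not counted. The 2 knockdowns share the control arrays, so the 2 differences of a gene are not independent of each other. For the brighter probe set the knockdowns differed by -0.14, with an interval of -0.40 to 0.13 (adjusted p = 0.911).

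**Figure D2:**
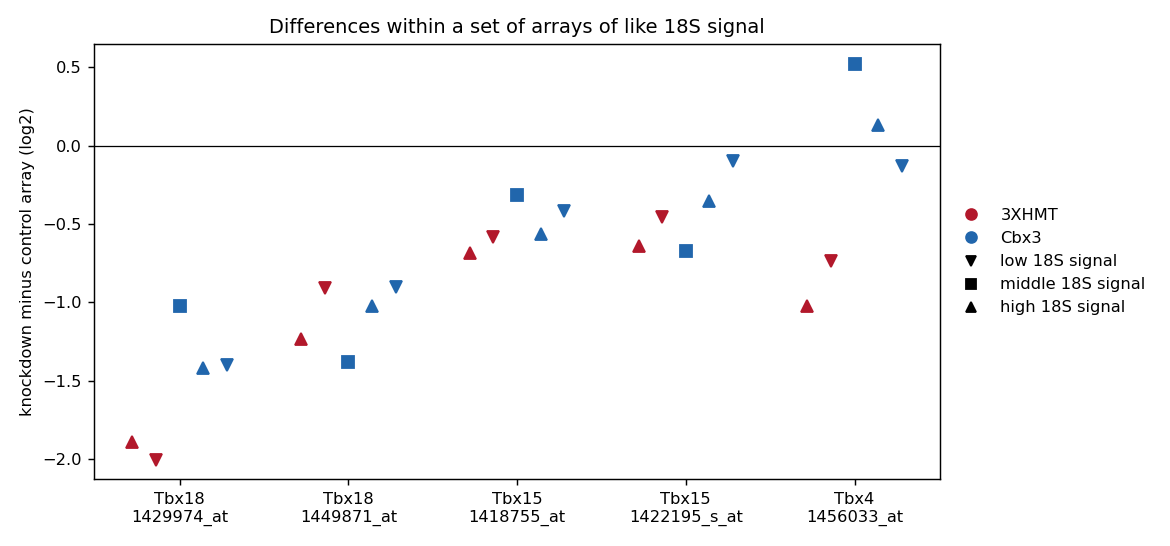
Difference in log2 signal (vertical axis) between each knockdown array and the control array of the same 18S set, for both probe sets of Tbx18 and Tbx15 and the brightest of Tbx4, coloured by knockdown. All points of Tbx18 and Tbx15 lie below 0, while for Tbx4 the 3XHMT points are at -1.03 and -0.74 and the Cbx3 points at 0.52, 0.13 and -0.13.

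Tbx20, a cardiac T-box gene of the same subfamily, had no resolved difference. Its brightest probe set (gene at chromosome 9, 24720812 to 24774303) read 5.79 and 6.91 in 3XHMT, 6.85, 5.86 and 6.44 in Cbx3, and 7.06, 5.86 and 6.71 in control arrays. The 3 arrays of the high 18S set, at 5.79 to 5.86, lay below all others, at 6.44 to 7.06, whatever the siRNA. Differences from control were -0.19 ± 0.45 (SE) in 3XHMT and -0.16 ± 0.41 in Cbx3 cells (adjusted p = 1.00 each), and with the 18S block 0.06 ± 0.14 and -0.16 ± 0.12.

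Tbx2, a repressor that restrains senescence in several cell types, also spread with the 18S sets. Its 1 probe set (gene at chromosome 11, 85832615 to 85841948) read 4.97 and 4.09 in 3XHMT, 5.82, 6.29 and 4.43 in Cbx3, and 6.43, 5.90 and 4.32 in control arrays. The arrays of the low set, at 4.09 to 4.43, lay below all others, at 4.97 to 6.43, and every group overlapped the others. The difference of -1.03 ± 0.70 (SE) between 3XHMT and control cells had an interval of -2.65 to 0.60 (adjusted p = 1.00). It was -1.64 without control 3, -0.59 without control 1 and -0.58 without 3XHMT 2. With the 18S block it was -0.73 ± 0.25 (adjusted p = 0.365). Cbx3 cells differed from control by -0.04 ± 0.63.

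Over all probe sets, 9.02% had their low-set arrays wholly below the rest and 5.99% their high-set arrays. Above the rest lay 9.11% with their low-set and 4.48% with their high-set arrays. Among the 17 T-box probe sets Tbx2 and the dimmer one of Tbx4 were lower in the low set, 2 of Tbx20 were lower and the dimmer one of Tbx4 higher in the high set, and 0 were higher in the low set. What sets these arrays apart was not tested.

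Tbx4, the hindlimb and lung mesenchyme gene next to Tbx2, was lower in 3XHMT than in Cbx3 cells in the fit with the 18S block. Its brightest probe set (gene at chromosome 11, 85886367 to 85916097) read 7.14 and 7.33 in 3XHMT, 7.84, 8.30 and 7.94 in Cbx3, and 7.32, 8.17 and 8.07 in control arrays. The 3XHMT arrays lay below every Cbx3 array, and control array 1, at 7.32, fell between the 2 3XHMT arrays. 3XHMT differed from Cbx3 cells by -0.79 ± 0.26 (SE), 1.73-fold lower, which did not pass over all probe sets (limma adjusted p = 0.362) but did with the 18S block, at -0.97 ± 0.17 (adjusted p = 0.0149). Against control the difference was -0.62 ± 0.26 in 3XHMT (adjusted p = 1.00; 0.0976 with the block) and 0.17 ± 0.23 in Cbx3 cells (adjusted p = 1.00).

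The dimmer Tbx4 probe set did not show it. It read 6.05 and 5.70 in 3XHMT, 5.88, 6.58 and 5.35 in Cbx3, and 5.76, 6.38 and 5.46 in control arrays, and differed between the knockdowns by -0.06 ± 0.38 (SE, adjusted p = 0.997). Its arrays were ordered by the 18S sets, with the high set at 6.05 to 6.58, the middle set at 5.76 to 5.88 and the low set at 5.35 to 5.70.

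Tbx3 and Tbx5, neighbours on chromosome 5 (119670534 to 119684724 and 119796514 to 119885220), had differences near 0 at their brightest probe sets, which stood below the array median for Tbx3 and above it for Tbx5 on every array. The brightest Tbx3 probe set read 5.15 and 5.23 in 3XHMT, 5.17, 5.24 and 5.10 in Cbx3, and 4.97, 5.27 and 5.26 in control arrays. Tbx3, which supports self-renewal of mouse embryonic stem cells, thus differed from control by 0.02 ± 0.13 (SE) in 3XHMT and 0.00 ± 0.12 in Cbx3 cells, with intervals of -0.28 to 0.32 and -0.26 to 0.27.

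For Tbx5, which drives forelimb and heart development, the brightest probe set read 6.30 and 6.17 in 3XHMT, 6.19, 6.18 and 6.21 in Cbx3, and 5.997, 6.21 and 6.21 in control arrays. It differed from control by 0.10 ± 0.12 (SE) in 3XHMT and 0.05 ± 0.10 in Cbx3 cells (adjusted p = 1.00 each). Another Tbx3 probe set was higher in 3XHMT arrays, at 4.17 and 3.93, than in control arrays, at 3.51, 3.80 and 3.64, but at a signal near the bottom of the array (0.40 ± 0.14, adjusted p = 1.00). The 6 probe sets not given singly, of Tbx3, Tbx20 and Tbx5, read 3.57 to 5.35 and differed by -0.31 to 0.14 in 3XHMT and -0.05 to 0.29 in Cbx3 cells from control.

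Counted over the members other than Tbx18, 0 of 15 probe sets passed in limma between 3XHMT and control, where 0.0555% of all probe sets did, and 4 had an unadjusted p under 0.05, against 4.19% of all. The groups did not overlap at 2 of the 15 on the lower side, both of Tbx15, against 6.81% of all probe sets, and at 1 on the higher side, against 8.54%. Between Cbx3 and control 0 of 15 passed, where 0.0777% of all did, and 1 had an unadjusted p under 0.05, against 7.23%. There 1 was lower without overlap, the brighter of Tbx15, against 5.84% of all, and 0 were higher, against 6.11%. The median difference of the 15 was -0.05 in 3XHMT and 0.05 in Cbx3 cells, beside 0.00 over all probe sets in both.

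Between 3XHMT and Cbx3 cells 0 of the 17 passed, where 0.528% of all did, and 2 had an unadjusted p under 0.05, against 8.74%. There 4 were lower without overlap, both Tbx18 probe sets and the brightest of Tbx15 and Tbx4, against 11.5% of all, and 0 were higher, against 11.8%. The 18S block called the brightest Tbx18 and Tbx4 probe sets lower, where it called 2.16% of all probe sets lower and 4.66% in either direction. For the 15 members other than Tbx18 it called 0 against control in either knockdown, where it called 0.699% of all probe sets in 3XHMT and 3.43% in Cbx3. Pairing control and Cbx3 arrays by their replicate number called 1776 probe sets in all, against 35 without pairing, with 0 of the 15 among them.

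**Figure D3:**
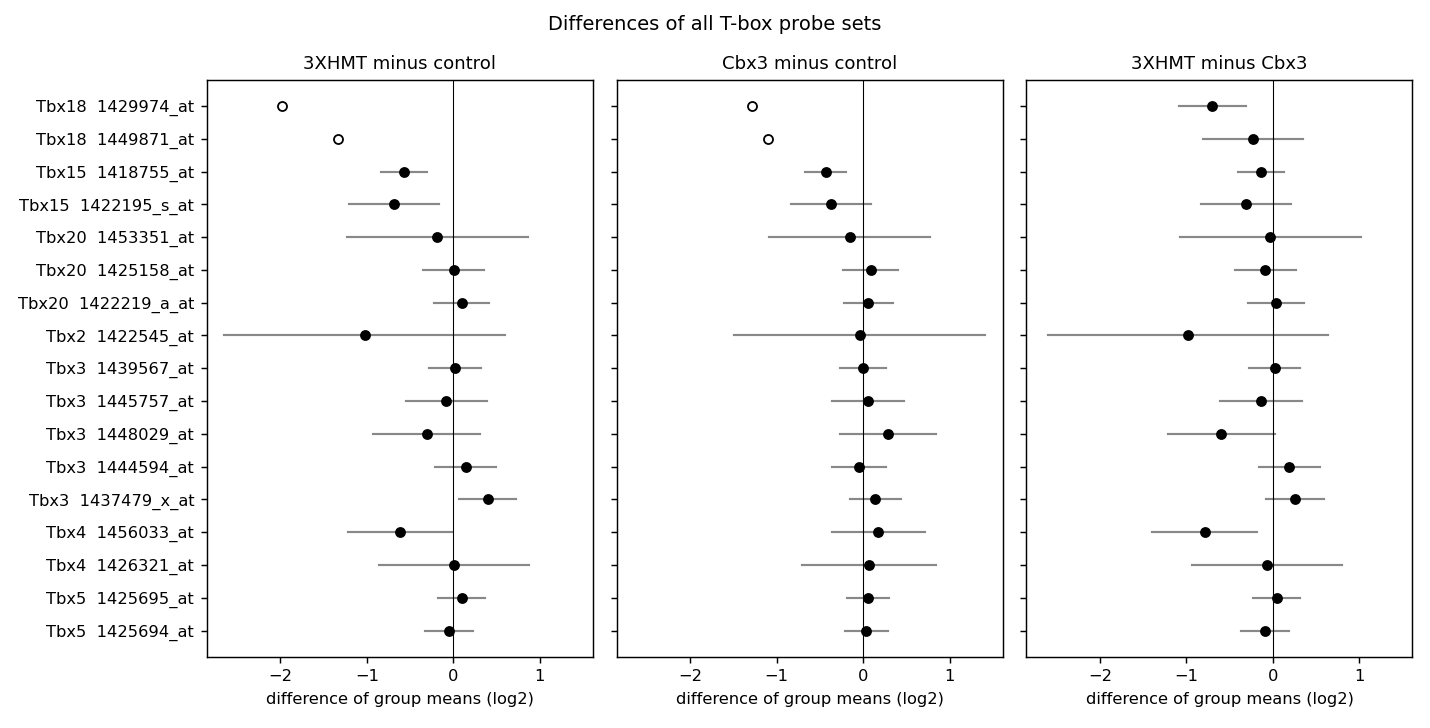
Difference of group means in log2 signal (horizontal axes) for all 17 T-box probe sets in 3XHMT minus control, Cbx3 minus control and 3XHMT minus Cbx3, with 95% intervals from the limma fit. Open points, without interval, are the Tbx18 differences that chose the gene. Most other intervals hold 0, and those of Tbx2 and the brightest Tbx20 probe set are the widest.

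The 8 further T-box family genes that were measured showed 0 calls. Of 10 further genes looked up by symbol 8 had a probe set named by that symbol alone, and 6 of these were below the array median on every array. T (Brachyury) and Tbx10 had no probe set named so and were not read. By limma 0 of 8 changed in any comparison, with or without the 18S block, and 0 had an unadjusted p under 0.05. Mga, which joins a T-box to a Max-binding domain, was the brightest and read 9.20 and 9.63 in 3XHMT, 9.30, 9.19 and 9.61 in Cbx3, and 9.33, 9.15 and 9.91 in control arrays. Eomes, a regulator of mesendoderm and trophoblast, averaged 7.18 ± 0.04 (SD, n = 2) in 3XHMT, 6.98 ± 0.55 (SD, n = 3) in Cbx3 and 7.06 ± 0.50 (SD, n = 3) in control cells. The medians of the 8 were -0.03 in 3XHMT and -0.09 in Cbx3 cells against control, beside 0.01 over all genes.

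Partners and reported targets of T-box factors were read next, 24 of 26 of which were measured. By limma 0 changed over all probe sets against control, while 1 had an unadjusted p under 0.05 in 3XHMT and 2 in Cbx3 cells, where 4.19% and 7.23% of all probe sets did. Gja1, a connexin gene that T-box repressors lower in the heart, averaged 13.21 ± 0.13 (SD, n = 2) in 3XHMT, 13.19 ± 0.08 (SD, n = 3) in Cbx3 and 13.17 ± 0.02 (SD, n = 3) in control cells. The cell cycle inhibitor gene Cdkn1a, a reported target of Tbx2, averaged 12.25 ± 0.14 in 3XHMT, 12.49 ± 0.08 in Cbx3 and 12.34 ± 0.12 in control cells. Tle4, of the Groucho corepressors that bind T-box factors, averaged 12.15 ± 0.01 in 3XHMT, 11.93 ± 0.16 in Cbx3 and 11.91 ± 0.52 in control cells. Cdh1, the E-cadherin gene, was 0.87 ± 0.37 (SE) higher in Cbx3 than in control cells (adjusted p = 0.681) and passed with the 18S block (0.0471).

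Epicardial genes were read because Tbx18 marks the epicardium. All 13 were measured, and 6 of them, Wt1, Tcf21 and Aldh1a2 among these, were below the array median on every array. By limma 0 of 13 passed in either knockdown, and 0 in 3XHMT and 3 in Cbx3 cells had an unadjusted p under 0.05, against 4.19% and 7.23% of all probe sets. In Cbx3 cells the median difference was 0.10, beside 0.01 over all genes, and the 18S block, which called 3.43% of all probe sets, called 3 higher: Upk1b (1.05 ± 0.33, adjusted p = 0.432; 0.0157 with the block), Msln (1.14 ± 0.39; 0.499 and 0.0345), both of mesothelial and other epithelia, and the chaperone gene Clu (0.56 ± 0.30; 0.823 and 0.0227). In 3XHMT cells the median was 0.02, and the block, which called 0.699% of all probe sets, called Clu lower (-0.73 ± 0.33, adjusted p = 1.00; 0.0233 with the block). Between 3XHMT and Cbx3 cells the block called 1 of 13 at their brightest probe sets, Clu, lower, where it called 2.16% of all probe sets lower. At dimmer probe sets it also called Upk1b and Sema3d lower.

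Markers of other cell types were read beside the Tbx18 differences, and the part of such cells in them was not tested. Fibroblast genes, 19 of 20 measured, had a mean level of 6.11 and 6.16 in 3XHMT arrays, 6.22 to 6.23 in Cbx3 arrays and 6.13 to 6.21 in control arrays, and 10 of them, with Col1a1, Pdgfra, Lum, Postn and Prrx1, were below the median on every array. By limma 0 of 19 passed against control in either knockdown, with or without the block, and 3 in 3XHMT and 1 in Cbx3 cells had an unadjusted p under 0.05, against 4.19% and 7.23% of all probe sets. Between 3XHMT and Cbx3 cells, where the block called Tbx18, it also called 4 of 19 at their brightest probe sets, against 4.66% of all probe sets. These were Twist1, a mesenchymal transcription factor gene (-0.74 ± 0.26, adjusted p = 0.418; 0.0354 with the block), Col3a1 (-0.79 ± 0.32; 0.518 and 0.0316) and Postn (-0.53 ± 0.11; 0.121 and 0.0339), of the extracellular matrix, on the lower side. On the higher side was Dcn, the decorin gene (1.09 ± 0.21; 0.0971 and 0.0200), which against control was 2.02-fold higher in 3XHMT cells (adjusted p = 0.339, unadjusted p = 0.00145; adjusted p = 0.0805 with the block). At a dimmer probe set the block also called Prrx1 lower between 3XHMT and Cbx3 cells. Pericyte and smooth muscle genes, 13 of 13, had a mean level of 5.93 in both 3XHMT arrays, 5.75 to 5.87 in Cbx3 arrays and 5.82 to 6.01 in control arrays. Of these, 7 were below the median throughout, and 0 passed in either knockdown. At an unadjusted p under 0.05 were 0 in 3XHMT and 2 in Cbx3 cells, against 4.19% and 7.23% of all probe sets. The block, which called 3.43% of all probe sets in Cbx3 cells, called Acta2 lower there (-0.54 ± 0.10, adjusted p = 0.140, and 0.0241 with the block). Macrophage and blood genes, 8 of 11 listed symbols measured, averaged 5.44 to 5.45 in 3XHMT, 5.35 to 5.66 in Cbx3 and 5.33 to 5.48 in control arrays. Without the block 0 were called. In each knockdown 2 had an unadjusted p under 0.05, against 4.19% of all probe sets in 3XHMT and 7.23% in Cbx3 cells. The block called 1, Cd34, higher in Cbx3 cells (0.47 ± 0.09, adjusted p = 0.167, and 0.0384 with the block). In 3XHMT cells Cd34 was 0.58 ± 0.10 higher (adjusted p = 0.225, and 0.0767 with the block). The labelled cell type carried Pou5f1 at 13.04 ± 0.13 (SD, n = 2) in 3XHMT, 12.84 ± 0.01 (SD, n = 3) in Cbx3 and 12.99 ± 0.34 (SD, n = 3) in control cells, and Nanog at 7.94 ± 0.31 in 3XHMT, 8.44 ± 0.76 in Cbx3 and 5.13 ± 0.27 in control cells (adjusted p = 0.0891 for 3XHMT and 0.0428 for Cbx3 against control). Of 17 genes of pluripotent cells limma called 1 higher in each knockdown against control, Dppa4 in 3XHMT and Nanog in Cbx3 cells. Of all probe sets it called 0.0555% and 0.0777%. An unadjusted p under 0.05 was found for 5 in 3XHMT and 6 in Cbx3 cells, against 4.19% and 7.23% of all probe sets. The 18S block called 3 higher in each, Zfp42 (8.54-fold in 3XHMT cells, adjusted p = 0.109 without the block), Nanog and Dppa4 in 3XHMT and Epcam, Cdh1 and Nanog in Cbx3 cells, where it called 0.699% and 3.43% of all probe sets. Between 3XHMT and Cbx3 cells Zfp42 and Dppa4 were called higher, where 0.528% of all probe sets were called in either direction. There the block called 3 of 17 higher and 1, Epcam, lower. Of all probe sets it called 4.66% in either direction and 2.16% lower.

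Of the genes beside the members, Nt5e alone passed in the fit of all 8 arrays, between the knockdowns. Of all probe sets 0.528% passed there. The 7 genes have 10 other nearest measured neighbours. Against control 0 of these changed in limma, where 0.0555% of all probe sets did in 3XHMT and 0.0777% in Cbx3 cells. Their differences were -0.26 to 0.44 in 3XHMT and -1.32 to 0.15 in Cbx3 cells. The 18S block called 0 of the 10 in 3XHMT and 1, Nt5e, in Cbx3 cells, against 0.699% and 3.43% of all probe sets. Between the knockdowns it also called Nt5e alone, against 4.66%. Tbx18 lies between Cep162, a centriolar gene 447.3 kb away, and Nt5e, the gene of the ecto-nucleotidase CD73, 596.3 kb away. Cep162 read 6.64 and 7.78 in 3XHMT, 7.11, 6.78 and 7.44 in Cbx3, and 7.16, 6.86 and 7.70 in control arrays, with full overlap. Nt5e read 9.42 and 9.29 in 3XHMT, 7.89, 7.76 and 7.17 in Cbx3, and 9.26, 8.82 and 8.71 in control arrays.

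Nt5e was thus high in 3XHMT, where Tbx18 was lowest, and low in Cbx3 cells. It was 1.75 ± 0.24 (SE) higher in 3XHMT than in Cbx3 cells (limma adjusted p = 0.0320), a call kept under 2 of the 8 omissions of 1 array, those of control 1 and control 3 (adjusted p up to 0.197 over all 8). Averaged over all its probe sets the difference was 0.73 (adjusted p = 0.0531). Against control it was -1.32 ± 0.22 in Cbx3 cells (adjusted p = 0.105) and 0.42 ± 0.24 in 3XHMT cells (1.00). The Cbx3 difference passed when arrays were paired by replicate number (0.00143). With the 18S block Nt5e passed between the knockdowns (limma adjusted p = 0.000302). Against control the block called it in Cbx3 cells (0.00131) and not in 3XHMT cells (0.144).

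**Figure D4:**
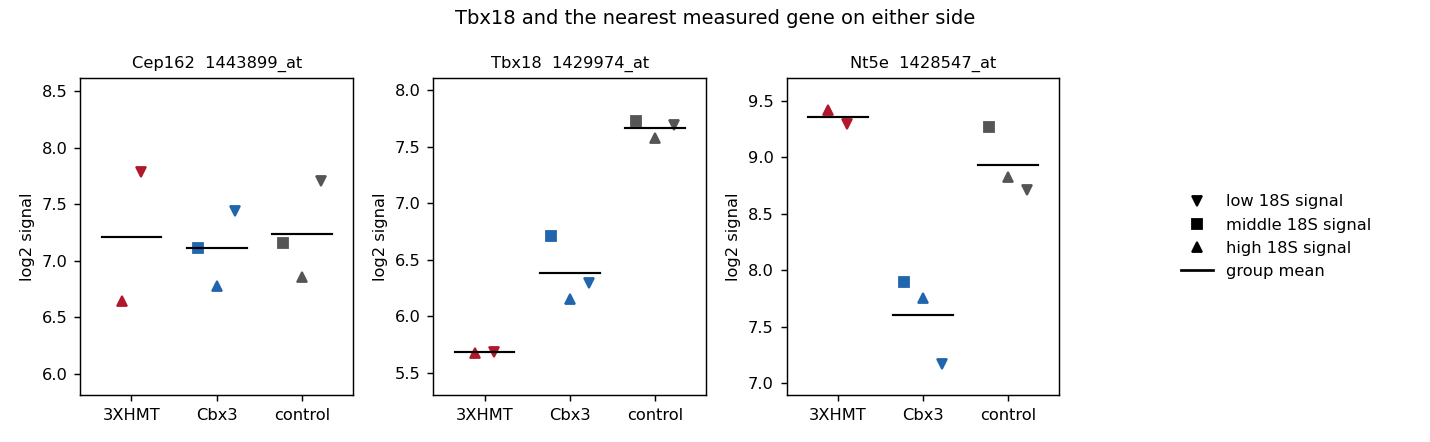
Log2 signal (vertical axes, all of equal span) of Tbx18 and the nearest measured genes on either side, Cep162 and Nt5e, in the 3XHMT, Cbx3 and control groups, 1 point per array, with the mean as a line. Tbx18 is low in both knockdowns, Cep162 overlaps throughout, and Nt5e is low in the Cbx3 arrays at 7.17 to 7.89.

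The probe sets whose pattern over the 8 arrays was most like that of the brightest Tbx18 probe set were those of Fgf13 (Pearson r = 0.956), Dram2 (0.952), Rasa3 (0.949), Gpr50 (0.945), Stau2 (0.945) and Mpdz (0.944). These arrays share 3 siRNA groups, so each r describes the likeness of 3 group levels as much as of single arrays. Fgf13, a fibroblast growth factor homologue that stays in the cell, read 5.13 and 4.87 in 3XHMT, 5.53, 5.18 and 4.89 in Cbx3, and 6.41, 6.16 and 6.30 in control arrays. The orphan receptor gene Gpr50 read 3.80 and 3.92 in 3XHMT, 4.59, 4.43 and 4.36 in Cbx3, and 5.57, 4.80 and 5.46 in control arrays. Among the T-box members the dimmer Tbx18 probe set had r = 0.923, the brightest of Tbx15 0.922 and its dimmer one 0.735, while the brightest of Tbx2, Tbx4 and Tbx20 had 0.367, 0.339 and 0.277, and those of Tbx3 and Tbx5 -0.12 and -0.49.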

How the data were processed

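Total RNA of 8 samples was labelled with biotin and read on 1-colour Affymetrix arrays, per the labels' protocols. The deposited table holds log2 expression values, which the authors made with RMA, per the submitters' processing notes (the notes give no version or settings). RMA normalizes between arrays, so a shift shared by most genes is removed. No scanner detection call was used here, and the number of arrays limits precision.

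Of 45101 probe sets, 64 controls were left out of the tests. The platform annotation named the probe sets, 1 symbol for each one used but that of the Cbx3 target. A gene is represented by its probe set of highest mean over all arrays. Counts over gene lists use that probe set unless a dimmer one is named, while the shares beside them are over all probe sets. Group means of all 8 arrays were fitted to the 45037 probe sets with limma 3.58.1 in R 4.3.3 (lmFit, eBayes, two-sided, 5 residual degrees of freedom), with Benjamini-Hochberg adjustment over all of them and a threshold of 0.05. Every adjusted p is from this fit or a named alternative to it. On simulated data of this size, log2 changes of 1 were recovered at 49%, 60% and 51% and of 2 at 85%, 94% and 80% for 3XHMT minus control, for Cbx3 minus control and for 3XHMT minus Cbx3.

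The members, the 7 gene lists beside them and the rule for named genes (all members, the targets, called or else brightest list genes, nearest neighbours, and the 6 probe sets most correlated with Tbx18) were chosen with earlier results of these data known. Alternatives were a block on replicate number or 18S set, the 2 groups alone, a filter on dim probe sets, cyclic loess, gene-level fits, an intensity trend and omission of each array. Deviations from group means correlated by 0.51, 0.62 and 0.74 between control and Cbx3 arrays of 1 number, which therefore count as paired. The main fit did not use this pairing. Between control and 3XHMT arrays of 1 number they correlated by 0.05 and -0.66, so these do not count as paired by number. By 18S set, 3XHMT 1 correlated with control 2 by 0.66 and 3XHMT 2 with control 3 by 0.58. With 2 arrays in the 3XHMT group, their deviations mirror each other, so -0.66 and 0.66 are 1 result.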

Additional observations from a re-analysis of the deposited data

Results flagged for a closer look

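Nt5e, the measured neighbour of Tbx18 at higher coordinates, differed between the knockdowns: its log2 difference from control was 0.42 in 3XHMT and -1.32 in Cbx3 cells, and the difference between the knockdowns was 1.75 (limma adjusted p = 0.0320 over all probe sets). It was higher in 2 of 2 3XHMT arrays than in any Cbx3 array, as were 11.8% of all probe sets. As given above, the call was lost under most omissions of 1 array and kept with the 18S block. Averaged over all Nt5e probe sets the difference was 0.73. Of the T-box probe sets, 0 of 17 differed between the knockdowns by limma, where 0.528% of all did. An unadjusted p under 0.05 was found for 2, against 8.74% of all.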

How the results depend on the processing

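The number of all probe sets called moved most. For 3XHMT minus control, 25 were called in the fit of all 8 arrays, 4 with a replicate block, 315 with the 18S block, 3 with the 2 groups alone, 11 after the filter on dim probe sets, 42 at gene level by the brightest probe set, 42 with an intensity trend, and 1 to 23 when an array was left out. For Cbx3 minus control, 35 were called, 1776 with the replicate block, 1547 with the 18S block, 14 with the 2 groups alone, 81 and 71 at gene level by the brightest probe set and by the mean, and 0 to 14 without 1 array. For 3XHMT minus Cbx3, 238 were called, 0 with the replicate block, 2099 with the 18S block, 80 with the 2 groups alone, and 6 to 186 without 1 array. The cause of these changes was not tested, beyond the fewer arrays that the omissions and the 2-group fits use.

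T-box calls (of Tbx18 only between the knockdowns) were 0 under every alternative but the 18S block, which called 2 in 3XHMT minus Cbx3, Tbx18 at -0.61 (adjusted p = 0.0381) and Tbx4. The brightest Tbx18 difference of 3XHMT minus control was -1.89 with that block and -1.66 as a mean of both probe sets. With the replicate block the sign turned for the dimmer Tbx4 probe set in 3XHMT minus control (-0.19) and for Tbx3 in 3XHMT minus Cbx3 (-0.014). With the 18S block it turned in 3XHMT minus control for the dimmer Tbx4 probe set (-0.034), Tbx3 (-0.028) and Tbx20 (0.058), and in 3XHMT minus Cbx3 for Tbx3 (-0.029) and Tbx20 (0.22). Cyclic loess turned Tbx3 in Cbx3 minus control (-0.022), and the gene-level mean turned Tbx5 (-0.022) and Tbx3 (-0.054) in 3XHMT minus Cbx3. None of these had passed.

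Leaving out 1 array turned signs in 3XHMT minus control for Tbx20 (-0.75 to 0.37), Tbx3 (-0.076 to 0.071) and the dimmer Tbx4 probe set (-0.19 to 0.27). In Cbx3 minus control it did so for Tbx2 (-0.66 to 0.50), Tbx20 (-0.50 to 0.11), Tbx3 (-0.095 to 0.052), Tbx4 (-0.092 to 0.33), its dimmer probe set (-0.25 to 0.37) and Tbx5 (-0.018 to 0.089). In 3XHMT minus Cbx3 it did so for Tbx20 (-0.59 to 0.53), Tbx3 (-0.018 to 0.057), the dimmer Tbx4 probe set (-0.36 to 0.26) and Tbx5 (-0.023 to 0.11). A group left with 1 array is assumed to vary like the others. No measure of background was used, so the detection of the 10 probe sets below every array's median was not tested.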
